A study of Homo sapiens with 25 samples.

Results

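The 4 H3K27me3 peak lists of definitive endoderm (hDE, 2 libraries) and pharyngeal foregut endoderm (hPFE, 2 libraries) were compared, out of 25 samples in the series, 21 of which have a peak list. They were chosen by their labels alone. A protein-coding gene was called gained if a peak lay within 1 kb of either annotated gene end in both hPFE libraries and in neither hDE library, and lost if the reverse held. Kept genes had such a peak in all 4 libraries and unmarked genes in none. The same rule was applied to gene bodies and to merged regions of the genome.

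H3K27me3 is the trimethyl mark that Polycomb repressive complex 2 places on histone H3. It covers the promoters of developmental regulators that a cell keeps silent, often as broad domains, and it is removed or replaced when such a gene is switched on. H3K27ac, an acetyl mark on the same residue, lies on active promoters and enhancers, so one histone tail cannot carry both marks at that position.

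The study took the human embryonic stem cell line H1 (hESC), an established line, through a directed differentiation in culture to definitive endoderm, then anterior foregut endoderm (hAFE) and then pharyngeal foregut endoderm, the tissue that lines the throat of the embryo and gives rise to thymus, parathyroid and thyroid. All groups share that line, and no allele or genetic change is named for any of them. The days and factors of the differentiation are not given in the labels used here. Chromatin immunoprecipitation with sequencing was done on crosslinked, sonicated cells. The single hAFE library and the 2 hESC libraries of H3K27me3, which were re-analysed from an earlier deposit, are read beside the comparison, as are H3K27ac (2 libraries per stage) and H3K4me2 (2 for hDE and 1 for hPFE). Whether the replicates of a stage came from different cultures is not stated, so their spread may be technical.

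One library stood apart in length. The hDE replicate 1 list held 28137 peaks against 65874 in hDE replicate 2, 76265 in hPFE replicate 1 and 66119 in hPFE replicate 2. Covered length differed less, at 16.5, 20.3, 22.9 and 22.2 Mb. Peaks marked 2889 and 3989 genes in hDE and 3188 and 3610 genes in hPFE, of 19974. The means, 3439 and 3399, differed by less than the spread between replicates (two-sided exact permutation p = 1, n = 2 per stage, where the smallest p this design allows is 0.333). Names of the deposited lists for replicate 1 of both stages carry a word that those for replicate 2 lack and whose meaning is not given; whether these libraries were prepared in another way was not tested. Read counts were not used here, so sequencing depth is unknown, and a gene without a peak may still carry the mark. In bulk samples, a change in the share of cells that carry a mark and a change within each cell cannot be told apart.

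Stage identity was read from H3K27ac at marker genes. In hDE, 7 of 7 definitive endoderm markers carried H3K27ac in both libraries, among them SOX17, EOMES and CXCR4. In hPFE 1 of them did, FOXA2, a foregut-wide factor. Of 11 anterior foregut and pharyngeal markers, 2 carried it in hDE, FOXA2 among them, and 4 in hPFE (SOX2, FOXA2, ISL1 and NKX2-6). TBX1, a pharyngeal marker, had no H3K27ac peak in either hPFE library and kept H3K27me3 in all 4 libraries, so the pharyngeal label rests on part of its marker set. None of the 2 neural, 3 mesenchymal and 3 blood and endothelial markers had H3K27ac in both libraries of either stage. Of 3 markers of pluripotent stem cells, NANOG carried it in both hDE libraries, NANOG and SOX2 in both hPFE libraries, and POU5F1 in neither library of either stage. The part of remaining stem cells in the results was not tested.

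The promoters of 4 genes show where the mark arrived and left. They belong to the best-ranked gained and lost genes of the gene lists whose promoter entry a peak of both libraries of the marked stage overlaps. Sequences are from RefSeq (GRCh38.p14), 250 bases before to 50 after the start site, written along the gene's strand with CG dinucleotides in capitals. CG was searched because Polycomb domains in mammals lie on CG-rich promoters. At least 1 CG is found in 96.0% of the 35116 promoter entries, and the median is 22 over the 15813 protein-coding genes with an entry.
EOMES (gained; chr3:27722274-27722573, minus strand): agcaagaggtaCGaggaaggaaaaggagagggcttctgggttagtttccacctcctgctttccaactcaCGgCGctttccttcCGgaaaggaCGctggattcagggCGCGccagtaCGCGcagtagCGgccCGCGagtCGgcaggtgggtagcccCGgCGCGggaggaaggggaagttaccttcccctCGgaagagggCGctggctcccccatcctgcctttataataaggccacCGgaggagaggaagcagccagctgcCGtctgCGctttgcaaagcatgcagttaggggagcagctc
SP5 (gained; chr2:170715087-170715386, plus strand): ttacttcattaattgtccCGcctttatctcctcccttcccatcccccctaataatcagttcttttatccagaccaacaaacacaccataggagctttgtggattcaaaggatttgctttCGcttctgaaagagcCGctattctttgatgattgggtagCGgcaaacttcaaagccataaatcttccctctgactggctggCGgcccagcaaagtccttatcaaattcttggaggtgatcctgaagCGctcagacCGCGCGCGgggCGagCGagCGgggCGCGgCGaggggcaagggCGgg
PAX9 (lost; chr14:36657318-36657617, plus strand): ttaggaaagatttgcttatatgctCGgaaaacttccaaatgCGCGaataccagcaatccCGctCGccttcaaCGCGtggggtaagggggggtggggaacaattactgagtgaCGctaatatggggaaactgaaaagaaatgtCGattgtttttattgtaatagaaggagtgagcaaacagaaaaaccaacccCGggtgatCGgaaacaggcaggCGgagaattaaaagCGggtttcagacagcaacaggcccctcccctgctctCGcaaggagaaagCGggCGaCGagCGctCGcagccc
HOXA2 (lost; chr7:27102634-27102933, minus strand): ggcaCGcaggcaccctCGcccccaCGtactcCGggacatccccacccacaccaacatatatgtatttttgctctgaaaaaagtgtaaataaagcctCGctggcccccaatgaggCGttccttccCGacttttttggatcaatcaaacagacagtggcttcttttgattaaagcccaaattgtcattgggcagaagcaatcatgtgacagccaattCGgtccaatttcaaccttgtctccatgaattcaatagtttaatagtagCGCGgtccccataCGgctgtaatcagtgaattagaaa
The EOMES window holds 21 CG dinucleotides, SP5 17, PAX9 19 and HOXA2 11. Over the EOMES and SP5 windows no hDE library had a peak, while both hPFE libraries covered all 300 bases. The PAX9 and HOXA2 windows were covered over all 300 bases in both hDE libraries and over 0 in both hPFE libraries. In the hAFE library peaks covered 214 bases of the EOMES window, 300 of SP5, 176 of PAX9 and 300 of HOXA2, so the latter pair still carried the mark at the stage before hPFE. Base composition was not compared between gained and lost genes, because under 80% of each class had an entry (74.8% and 76.4%).

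Between definitive and pharyngeal foregut endoderm, 325 protein-coding genes gained H3K27me3 at a gene end (1.63% of all) and 437 lost it (2.19%). The mark arrived over primitive streak and endoderm regulators such as EOMES, GSC, SOX17 and HHEX. It left anterior HOX genes such as HOXA2, HOXB1 and HOXB2 and foregut genes such as PAX9, SHH and ISL1. Most marked genes did neither, with 1977 genes kept (9.90%), 14290 unmarked (71.5%) and 2945 marked in some libraries only. Gains were 2.06% of the 15786 genes unmarked in both hDE libraries, and losses 16.2% of the 2690 genes marked in both. With 2 libraries per stage these counts have no p-value.

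Counts at this level depended on which libraries entered. Without hDE replicate 1, the short list, 355 genes gained and 1312 lost the mark, and without hDE replicate 2 the counts were 543 and 561. When hPFE replicate 1 was left out, 995 genes gained and 493 lost it, and leaving out hPFE replicate 2 gave 826 and 657. A rule over fewer libraries is met more often by construction. With all 4 lists cut to the 28137 best-ranked peaks, 241 genes gained and 477 lost the mark.

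The rule did not require the peaks of a stage's libraries to lie at the same gene end. Among genes with strand, 187 of 243 gained and 280 of 334 lost genes had a peak at the start in both libraries. Many of the calls rested on short peaks. Of the 325 gained genes, 140 had under 200 bp of peak at their ends in at least 1 hPFE library, and 35 had at least 1000 bp in both. Among the 437 lost genes, 159 had under 200 bp in at least 1 hDE library and 36 at least 1000 bp in both. The median longest peak was 301 and 376 bp in the hPFE libraries for gained genes and 417 and 389 bp in the hDE libraries for lost genes. Kept genes had medians of 1071 to 1644 bp in the 4 libraries. Of these broad changes, 16 of the 35 gained and 10 of the 36 lost genes stand in the gene lists described next.

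**Figure D1:**
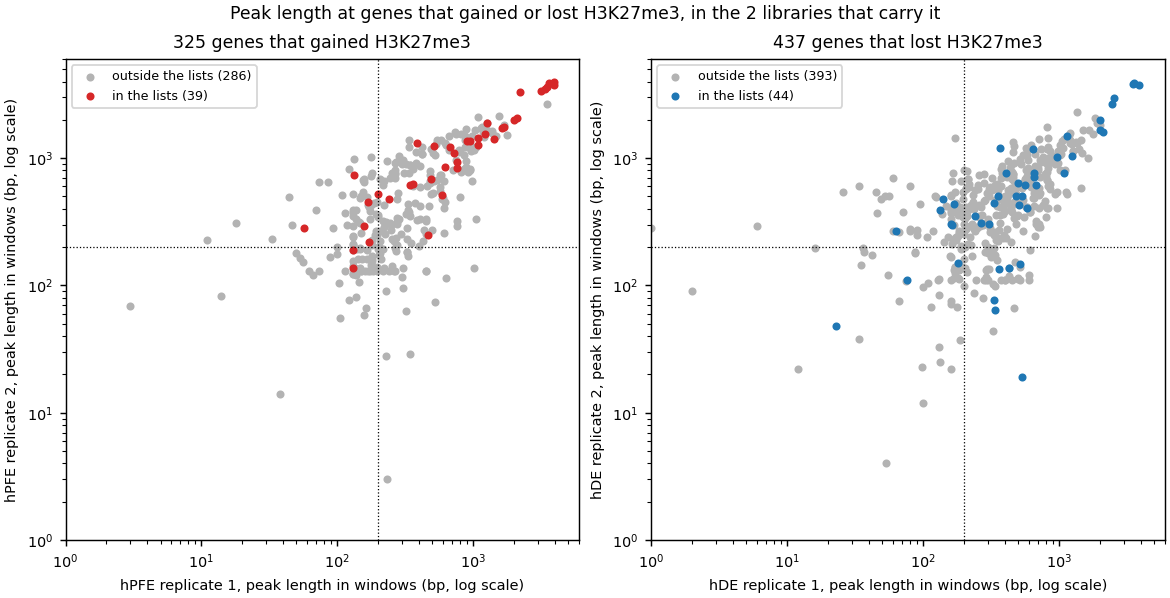
Length of H3K27me3 peak within 1 kb of the gene ends in replicate 1 (horizontal) and replicate 2 (vertical) of the stage that carries the mark, both in bp on log scales, for the 325 gained genes (left) and the 437 lost genes (right). Each point is a gene, coloured points are list genes (39 gained, 44 lost), and dotted lines stand at 200 bp; points near the upper right corner have long peaks in both libraries.

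Lists of genes by role were read next, 21 lists with 743 measured genes, of which 39 gained and 44 lost the mark. Peak length below is the number of bases of peak within the gene-end windows, and fold enrichment is the authors' own value of the strongest peak, to be read within 1 library only. In the primitive streak list, the regulators of the passage from epiblast to mesoderm and endoderm, 7 of 15 genes gained H3K27me3 and 0 lost it, against 1.63% and 2.19% of all genes. The definitive endoderm list had 9 of 25 gained and 0 lost. EOMES and GSC stand in both lists.

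EOMES, the T-box factor that starts endoderm formation (chr3:27715953-27722713), had 0 bp of peak in both hDE libraries and 3338 and 3494 bp in the hPFE libraries, with fold enrichments of 8.43 and 9.48. GSC, a homeobox factor of the organizer (chr14:94768223-94770113), had 0 and 0 bp in hDE and 3509 and 3602 bp in hPFE. LHX1, a LIM homeobox factor of the streak, went from 0 and 0 to 3920 and 3760 bp. In all 3 genes most of both end windows lay under peaks in hPFE, and no hDE peak lay anywhere over the gene and its flanks. SP5, a target of WNT signalling, had 0 and 0 bp in hDE and 3580 and 3894 bp in hPFE. WNT3, the ligand that induces the streak, had 0 and 0 against 1253 and 1872 bp, and FGF8 had 0 and 0 against 591 and 512 bp. MIXL1, a homeobox factor of the same step, had short peaks of 169 and 450 bp in hPFE and lost its call at a stricter peak threshold (−log10 p of at least 5). TBXT, the notochord and mesoderm factor, was among the 5 kept genes of this list.

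Among endoderm factors, SOX17 (chr8:54457935-54460892) had 0 bp in both hDE libraries and 3904 and 4000 bp in hPFE, with fold enrichments of 9.36 and 8.37. HHEX, a homeobox factor of the foregut and its derivatives, had 0 and 0 bp in hDE and 3170 and 3349 bp in hPFE. GATA4, a zinc finger factor of endoderm and heart, had 0 and 0 against 2000 and 2000 bp. SOX17 and HHEX had no hDE peak over the gene and its flanks, while inside GATA4 hDE peaks lay over 20.9% and 22.97% of that span, against 54.0% and 54.7% in hPFE. OTX2, an anterior identity factor, had 0 and 0 against 1618 and 1721 bp, and FOXA3, a forkhead factor of gut endoderm, 0 and 0 against 1080 and 1261 bp. CYP26A1, which degrades retinoic acid, had 719 and 1102 bp in hPFE and GATA6 238 and 482 bp. Both of the latter lost their calls at the stricter threshold. In this list 11 genes were unmarked, among them CXCR4, a chemokine receptor, and CER1, a secreted Nodal and BMP inhibitor.

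A wider window changed several of these calls. With 2.5 kb either side of the gene ends, 4 primitive streak and 4 definitive endoderm genes remained gained, because an hDE peak lay in the added stretch. For EOMES that stretch held 0 and 285 bp of peak in the hDE libraries, for GATA4 0 and 316 bp, for HHEX 401 and 146 bp, and for SP5 1215 and 1349 bp. Over all genes, 114 of the 325 gained genes (35.1%) had an hDE peak within 2.5 kb and 147 of the 437 lost genes (33.6%) had an hPFE peak there. GSC, SOX17, FOXA3, WNT3 and FGF8 kept their calls under every setting with all 4 libraries that read them. SOX17 and FGF8 have no entry with strand and were not read with the annotated start alone.

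Gained genes lay on a path with 3 stages beside the hDE list. The mark was present in both hESC libraries at 7 of the 7 gained primitive streak genes and 8 of the 9 gained definitive endoderm genes, and the hAFE library carried it at 6 and 7. Over the whole lists the hESC mark lay at 14 of 15 and 16 of 25 genes, and the hAFE mark at 12 of 15 and 11 of 25. The gained primitive streak genes thus lay near the share of their list. Over all genes the shares were 19.3% in hESC and 15.5% in hAFE. EOMES had 3137 and 3671 bp in hESC, 0 and 0 in hDE, 3328 in hAFE and 3338 and 3494 in hPFE. OTX2, FOXA3 and FGF8 had no hAFE peak at their ends and were marked there in hPFE. Over the whole gene with its flanks, hAFE peaks covered 28.2% of FGF8 and 0% of OTX2 and FOXA3. The hESC values come from another deposit, so stage and deposit cannot be told apart in them.

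**Figure D2:**
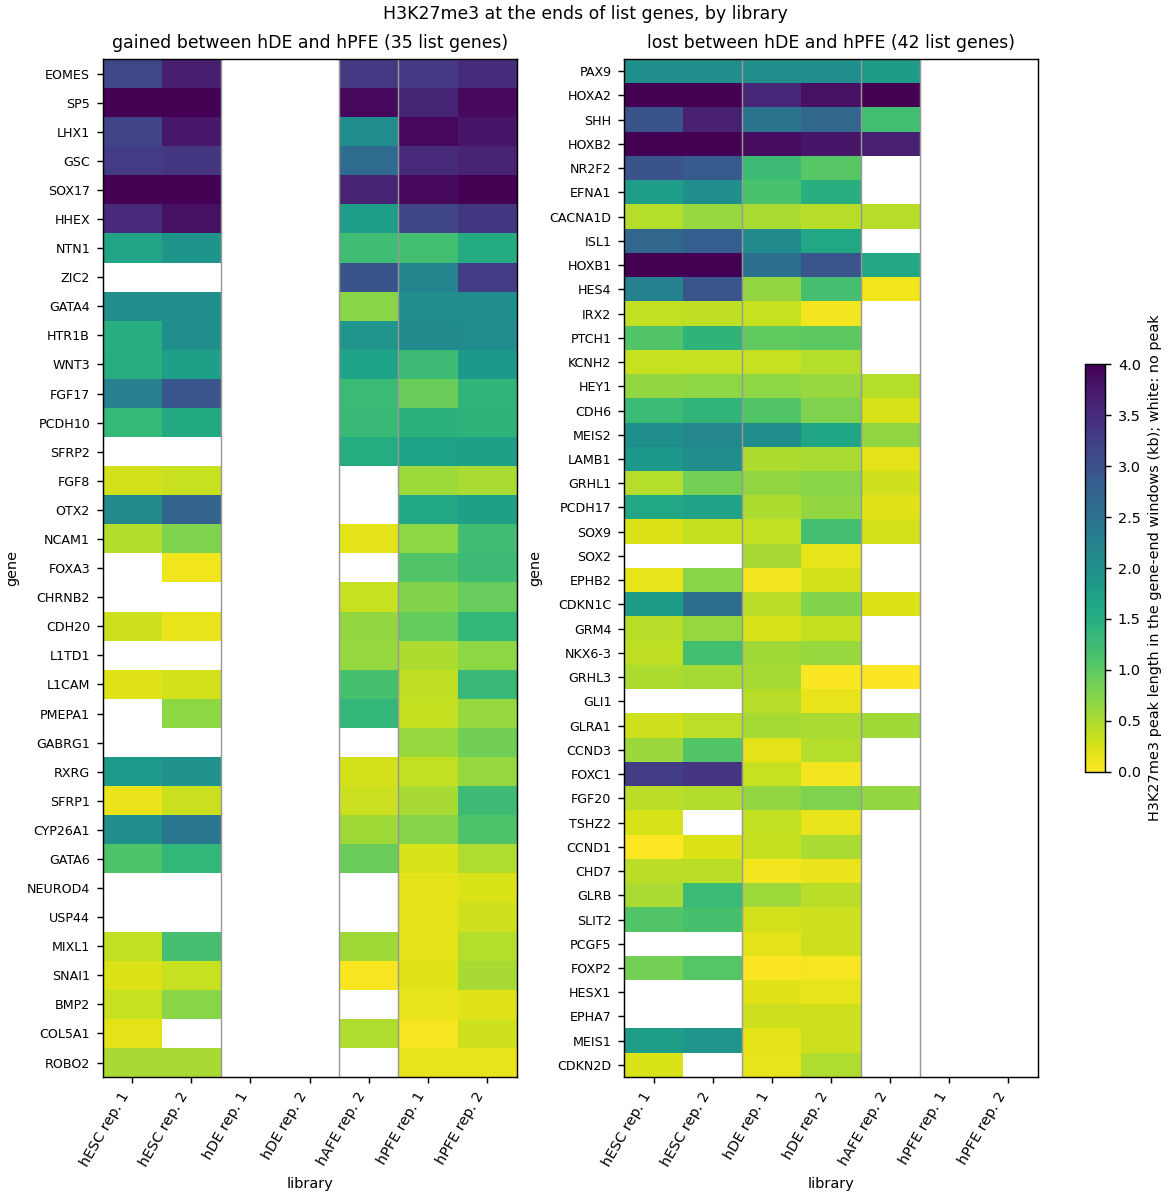
Length of H3K27me3 peak in the gene-end windows (colour, kb; white for no peak) in 7 libraries, for 35 of the 39 list genes that gained (left) and 42 of the 44 that lost (right) the mark between hDE and hPFE, ordered by rank of the weaker library. The hDE columns on the left and the hPFE columns on the right are white by the rule, and the hAFE column is filled for more of the gained than of the lost genes.

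The pluripotency list had 3 of 23 genes gained and 1 lost. L1TD1, an RNA-binding protein of stem cells, had 489 and 683 bp in hPFE, with 0 in both hDE libraries. USP44, a deubiquitinase, had 158 and 292 bp and lost its call at the stricter threshold. The lost gene was SOX2, a factor of both stem cells and foregut, with 522 and 147 bp in hDE and 0 and 0 in hPFE. Its strongest peak in each hDE library lay toward the end of the gene, not at its annotated start. With the annotated start alone, or with an overlap of 200 bp, SOX2 was not called. POU5F1 and NANOG were unmarked in all 4 libraries.

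Losses were counted most often, by share, in the anterior foregut and pharyngeal endoderm list, with 13 of 38 genes lost and 2 gained. Over all genes the shares were 2.19% and 1.63%. A gene can be lost only if both hDE libraries marked it, and of the 2690 such genes 16.2% were lost. In this list 7.89% of genes were unmarked in all 4 libraries, against 71.5% of all genes. PAX9, a paired box factor of the pharyngeal pouches (chr14:36657568-36679362), had 2000 and 2000 bp in hDE and 0 and 0 in hPFE, with hDE fold enrichments of 8.24 and 9.58. SHH, the ligand of Hedgehog signalling (chr7:155799980-155812463), had 2464 and 2675 bp in hDE and 0 and 0 in hPFE. ISL1, a LIM homeobox factor of pharyngeal endoderm and heart, had 2100 and 1604 bp against 0 and 0. Over the whole gene with its flanks ISL1 had no hPFE peak, and PAX9 and SHH had peaks over 1.16% and 1.01% in hPFE replicate 1 and 0% in replicate 2. MEIS2, a HOX cofactor, had 2000 and 1650 bp in hDE, and the related MEIS1 had short peaks of 160 and 302 bp. CHD7, a chromatin remodeller, had 77 and 110 bp, and TSHZ2, a zinc finger factor, 366 and 134 bp. The CHD7 peaks of the hDE libraries lay at opposite ends of the gene, so no site was marked in both. MEIS1, CHD7 and TSHZ2 lost their calls at the stricter threshold, while PAX9, SHH, ISL1 and MEIS2 kept theirs. The strongest MEIS2 peak in each hDE library lay at the far end of the gene, not at its annotated start. With the annotated start alone MEIS2 was not called. With the window of 2.5 kb PAX9 and SHH lost theirs, because hPFE peaks of 60 and 345 bp and of 147 and 0 bp lay near them.

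The hAFE library carried the mark at 7 of these 13 genes. PAX9 had 1812 bp there, SHH 1211 bp, MEIS2 670 bp and HOXA2 4000 bp. ISL1 and SOX2 had none, at the ends or within. The list was not cleared as a whole, since 14 of its genes were kept. TBX1, the central T-box factor of pharyngeal development, had 1807 and 1907 bp in hDE and 1675 and 2000 bp in hPFE. PAX1, a paired box factor of the pouches, stayed marked over less length, at 1968 and 2075 bp in hDE and 228 and 370 bp in hPFE. NKX2-6 had 3884 and 3763 bp in hDE, 0 bp in hPFE replicate 1 and 746 bp in hPFE replicate 2, so it received no call.

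The 39 HOX genes give position along the body axis and lie in 4 clusters in the order of their action. Of them 4 lost H3K27me3, 0 gained it and 35 kept it. The lost share, 10.3%, compares with 2.19% of all genes and 16.2% of the 2690 genes marked in both hDE libraries. By the latter measure HOX genes were not lost more often than other marked genes. The share of each gene with its 1 kb flanks under a peak shows the extent. HOXA2 was covered over 89.4% and 95.8% in hDE, 100% in hAFE and 0% and 0% in hPFE. HOXB2 had 97.1% and 90.8%, then 89.3%, then 0% and 0%. HOXB1 had 63.9% and 73.0%, then 39.9%, then 0% and 0%. These 3 genes were thus clear in hPFE and still covered in part or whole 1 stage earlier. HOXD1, in another cluster, had 74.9% and 88.9% in hDE and 96.2% and 97.9% in hPFE.

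Next along clusters A and B, coverage was partial. HOXA3 went from 95.6% and 94.9% in hDE to 62.5% and 67.7% in hPFE, and HOXB3 from 91.8% and 92.5% to 67.4% and 70.7%. HOXA4 had 86.3% and 90.9% in hDE and 64.9% and 82.8% in hPFE. HOXA6 had 97.7% and 95.3% in hDE and 96.0% and 97.1% in hPFE, so the stages overlapped there. Over whole clusters, HOXA was covered over 94.7% and 94.7% in hDE and 69.8% and 71.7% in hPFE. HOXB had 66.1% and 65.5% against 56.3% and 54.0%. HOXC had 94.3% and 93.8% against 93.7% and 94.9%, and HOXD 84.4% and 86.7% against 89.6% and 92.1%. Of the 4 clusters, coverage was thus lower in both hPFE libraries than in both hDE libraries in A and B, and in HOXD both hPFE libraries lay above both hDE libraries. The losses of HOXA2, HOXB1 and HOXB2 were called under each alternative of peak threshold, list length, overlap, window and library. With the annotated start alone HOXA2 and HOXB1 were lost, and HOXB2 has no entry with strand and was not read.

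**Figure D3:**
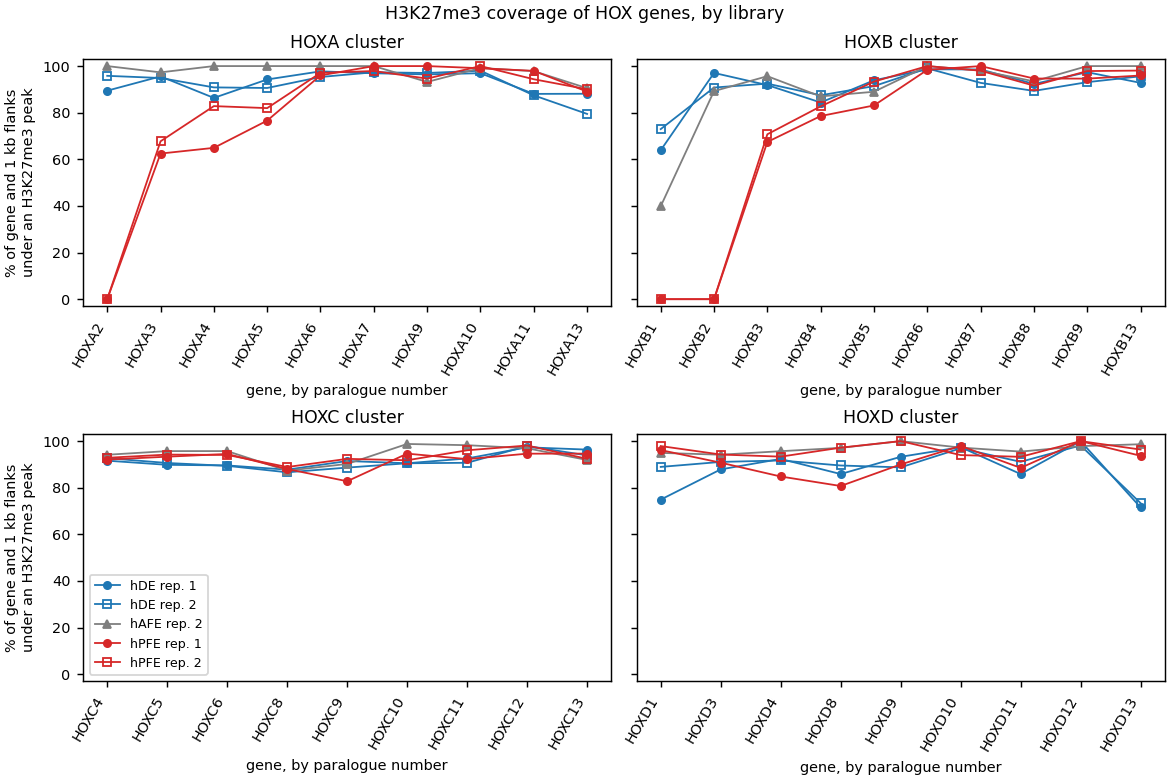
Share of each HOX gene and its 1 kb flanks under an H3K27me3 peak (%, vertical) for genes of the 4 clusters by paralogue number (horizontal), in 2 hDE libraries (blue), the hAFE library (grey) and 2 hPFE libraries (red). HOXA2, HOXB1 and HOXB2 are at 0% in both hPFE libraries, and the lowest value in clusters C and D is 71.6%, at HOXD13 in hDE replicate 1.

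Retinoic acid is a signal from vitamin A that acts on HOX genes in the foregut. Of its list of 27 genes, 5 lost and 2 gained the mark. Counts in this and the lists that follow stand beside 1.63% of all genes gained and 2.19% lost. Of the 2690 genes marked in both hDE libraries, 16.2% were lost. HOXB1, MEIS1 and MEIS2 are shared with the lists above. NR2F2, an orphan nuclear receptor, had 1251 and 1035 bp in hDE and 0 and 0 in hPFE, with no hAFE peak at its ends. Over the whole gene with its flanks hAFE peaks covered 12.2%, against 63.1% and 60.1% in hDE. The gained genes were CYP26A1 and RXRG, a retinoid receptor, which had 360 and 626 bp in hPFE. ALDH1A2, which makes retinoic acid, kept the mark with 1437 and 1521 bp in hDE and 1442 and 1718 bp in hPFE. Without hDE replicate 1 the list had 8 genes lost.

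In the signalling list (Nodal, BMP, WNT, FGF, Hedgehog and Notch) 8 of 111 genes gained and 6 lost the mark. Among ligands, FGF17 had 892 and 1363 bp in hPFE and 0 and 0 in hDE, and BMP2 had 130 and 189 bp. Among secreted WNT inhibitors, SFRP2 had 1675 and 1747 bp in hPFE and SFRP1 516 and 1251 bp, both with 0 in hDE. PMEPA1, an inhibitor of TGF-beta signalling, had 344 and 618 bp. Thus the gained side held WNT, FGF and BMP pathway members. On the lost side 3 Hedgehog genes were called. The ligand SHH is given above, the receptor PTCH1 had 972 and 1013 bp in hDE and 0 and 0 in hPFE, and the transcription factor GLI1 had 431 and 137 bp in hDE. The GLI1 peaks in both hDE libraries lay beyond the gene's end, inside the neighbouring gene ARHGAP9. That neighbour was lost with the same 431 and 137 bp, so the lost peaks did not lie on GLI1 itself. PTCH1 and GLI1 had no hAFE peak, and GLI1 lost its call at the stricter threshold. Within 2.5 kb of the GLI1 ends the hPFE libraries held 845 and 1040 bp of peak, so that window gave GLI1 no call either. The mark was thus not absent from its surroundings in hPFE. HES4 (642 and 1180 bp) and HEY1 (675 and 619 bp), targets of Notch signalling, and FGF20 (653 and 767 bp) made up the rest.

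In the cell cycle list 4 of 18 genes lost the mark and 0 gained it. CDKN1C, a CDK inhibitor from an imprinted region, had 411 and 763 bp in hDE, and CCND1, cyclin D1, had 355 and 500 bp. CCND3 had 169 and 439 bp and CDKN2D 141 and 482 bp. All had 0 bp in hPFE, and of the 4 only CDKN1C kept its call at the stricter threshold. CDKN2A, a CDK inhibitor that Polycomb is known to silence, was kept, with a longest peak of 1800 and 2282 bp in hDE and 3046 and 2953 bp in hPFE.

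Adhesion, guidance and matrix genes changed in both directions, 7 of 78 each way. NTN1, a guidance cue, had 0 and 0 bp in hDE and 1211 and 1535 bp in hPFE, and PCDH10, a protocadherin, 1426 and 1405 bp. NCAM1, L1CAM, CDH20, COL5A1 and ROBO2 were the other gained genes. The ROBO2 peaks of the hPFE libraries lay at opposite ends of the gene. With the window of 2.5 kb NTN1 lost its call, because hDE peaks of 789 and 1659 bp lay near it. EFNA1, an ephrin ligand, had 1144 and 1483 bp in hDE and 0 and 0 in hPFE, and CDH6, a cadherin, 1090 and 767 bp. LAMB1 (488 and 505 bp), a laminin chain, PCDH17, EPHA7, EPHB2 and SLIT2 were lost with shorter peaks. Ion channel and receptor genes had 6 of 102 gained, with HTR1B, a serotonin receptor, at 2104 and 2058 bp in hPFE, and 5 lost, with CACNA1D, a calcium channel, at 509 and 429 bp in hDE. HTR1B too lost its call with the window of 2.5 kb, where the hDE libraries held 836 and 484 bp. GABRG1, a subunit of GABA receptors, was gained with 614 and 856 bp in hPFE, and CHRNB2, a subunit of nicotinic receptors, with 757 and 932 bp. The lost channel genes also held GLRA1 (535 and 501 bp in hDE), GLRB (584 and 408 bp), GRM4 (241 and 351 bp) and KCNH2 (332 and 445 bp).

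Most members of the transcription factor families kept the mark. In the list of SOX, GATA, TBX, PAX and related families 4 of 75 genes gained (5.33%), 5 lost (6.67%) and 50 kept the mark. Over all genes 1.63% gained and 2.19% lost it. Beside PAX9 and SOX2, the lost genes were SOX9, a factor of foregut derivatives and cartilage (367 and 1201 bp in hDE, also in the lung and liver lists), NKX6-3, a stomach factor (564 and 619 bp), and IRX2 (338 and 64 bp). With the window of 2.5 kb SOX9 and IRX2 had no call, because hPFE peaks of 510 and 168 bp and of 866 and 965 bp lay near them. Of 28 FOX genes 1 gained (3.57%), 2 lost (7.14%) and 17 kept the mark. The lost ones, FOXP2 (23 and 48 bp) and FOXC1 (334 and 77 bp), lost their calls at the stricter threshold. SNAI1, a repressor of the epithelial state, was gained with 198 and 521 bp and lost its call there too. In the epithelium list the lost genes were GRHL1 (657 and 711 bp in hDE) and GRHL3 (534 and 19 bp), grainyhead factors of epithelial cells.

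Lists for other fates mostly held their mark. In the neural list 54 of 58 genes were kept, with the longest peaks at LHX5, OLIG3, SIM2 and EN2. PAX6 had 2000 bp in all 4 libraries. Changes were limited to ZIC2 (2199 and 3304 bp in hPFE) and NEUROD4 (170 and 220 bp) gained and HESX1 (181 and 151 bp in hDE) lost. The strongest NEUROD4 peaks of the hPFE libraries lay at opposite ends of the gene. Kept genes were 28 of 39 in the neural crest, mesenchyme and arch list and 24 of 41 in the mesoderm, heart, blood and endothelium list. Of the thymus, parathyroid and thyroid list 11 of 21 were kept, and HHEX was its 1 change. NKX2-1, a thyroid and lung factor, had 3118 and 2818 bp in hDE and 3701 and 3862 bp in hPFE. GCM2, the parathyroid factor, had 1757 and 1734 bp in hDE and 1838 and 1815 bp in hPFE, so both stayed covered at the pharyngeal stage. Of the 24 housekeeping genes 22 were unmarked in all 4 libraries and none was called. Among 36 genes of Polycomb complexes and H3K27 demethylases PCGF5 was lost (163 and 297 bp in hDE), and 24 were unmarked, among them EZH2, the methyltransferase.

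**Figure D4:**
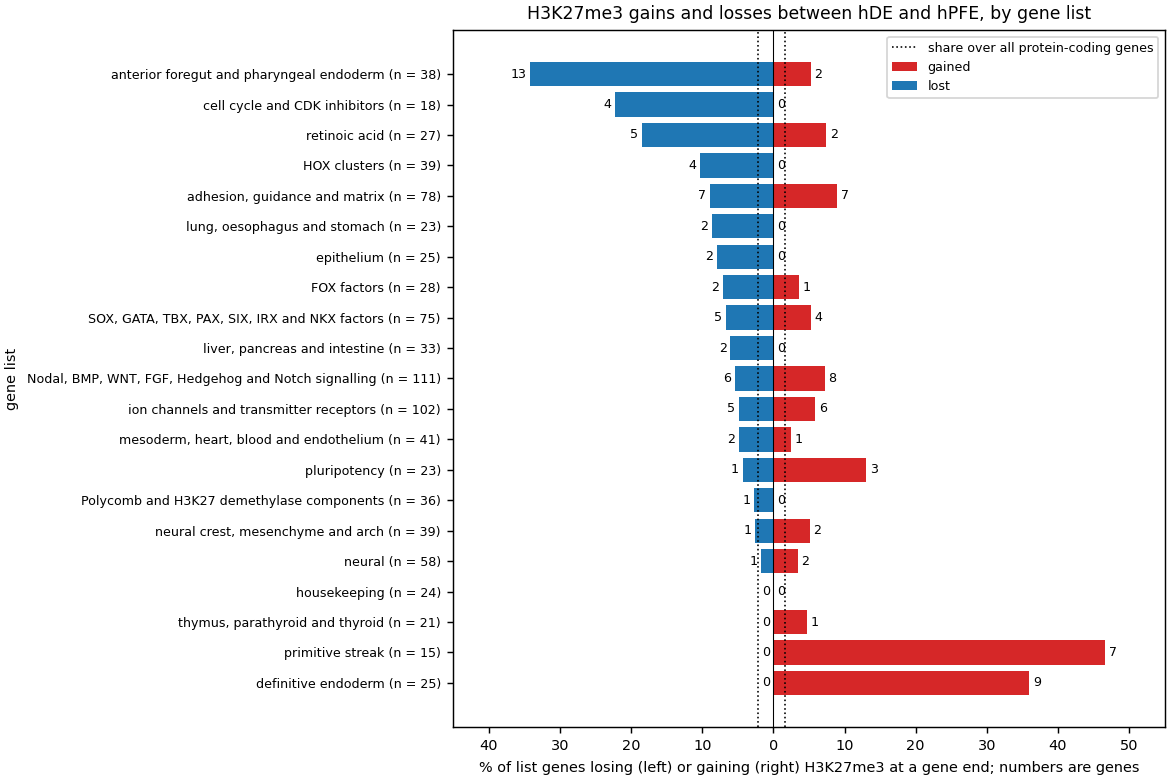
Share of each gene list (%) that lost H3K27me3 (blue, to the left) or gained it (red, to the right) at a gene end between hDE and hPFE, with the number of genes beside each bar and the number measured in brackets. Dotted lines give the shares over all 19974 protein-coding genes, 2.19% lost and 1.63% gained. Of the 2690 genes marked in both hDE libraries 16.2% were lost, a share that no line shows. The primitive streak (7 gained) and definitive endoderm (9 gained) lists have no lost gene.

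Outside the lists, the best-ranked gained genes were GPR176, TMEM132B, SP8, LZTS1, MTCL3, DDX31, AATF, KCNB2, TGFA and ADD2. GPR176, an orphan G-protein-coupled receptor (chr15:39799008-39920266), had 0 and 0 bp in hDE, 1477 bp in hAFE and 1694 and 1821 bp in hPFE. SP8, a zinc finger factor of the SP5 family, had 0 and 0 bp in hDE and 3483 and 2685 bp in hPFE. The AATF call lies beside LHX1 on chromosome 17, with 322 and 364 bp in hPFE. The best-ranked lost genes were KAZALD1, SAMD11, SOWAHB, ASPG, FAM110D, NIN, GREB1L, MYO5B, LOC124902461 and PPM1L. SAMD11 had 1094 and 1409 bp in hDE, 1377 bp in hAFE and 0 and 0 in hPFE. GREB1L, a gene required for kidney and inner ear development, had 1215 and 1566 bp in hDE and no peak at its ends in hAFE or hPFE. Neighbours can share a peak: the 325 gained genes had 317 distinct strongest peaks and the 437 lost genes 420.

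H3K27ac, which the calls did not use, moved the other way at many of these genes. Of all genes, 384 gained H3K27ac at a gene end between the stages (1.92%) and 633 lost it (3.17%). Among the 437 genes that lost H3K27me3, 67 gained H3K27ac and 5 lost it. The 325 genes that gained H3K27me3 had 96 with H3K27ac lost and 2 with it gained. These pairs of opposite changes are 0.335% and 0.481% of all genes. H3K27ac lay in both hDE libraries at 54.2% of the genes that gained H3K27me3, and in both hPFE libraries at 15.1%. For the genes that lost H3K27me3 the shares were 31.4% and 49.2%, and for kept genes 12.2% and 8.50%. Over all genes they were 54.1% and 50.3%, so the gained genes in hDE and the lost genes in hPFE lay near the share of all genes. Without hDE replicate 1 of H3K27me3 the opposite pairs on the lost side were 108, and without hPFE replicate 1 those on the gained side were 141.

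All 7 gained primitive streak genes lost H3K27ac. The strongest H3K27ac peak at EOMES had a fold enrichment of 19.02 and 21.3 in the hDE libraries, with no peak in either hPFE library. At GSC the values were 16.3 and 22.4, and at SOX17 13.9 and 18.4, again with none in hPFE. GATA6 and OTX2 kept an H3K27ac peak in hPFE replicate 1 (fold enrichments of 4.72 and 5.07) and CYP26A1 in both (3.88 and 2.03), so these 3 had no opposite call. In all, 22 of the 39 gained list genes lost H3K27ac and 10 had no H3K27ac peak at either stage, among them HTR1B, SFRP2 and NCAM1.

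On the lost side 13 of 44 list genes gained H3K27ac. They included HOXA2, HOXB2, ISL1, SOX2, PTCH1, CCND1, CDH6, EPHB2, GLRB, GRHL1, GRHL3 and SLIT2. HOXA2 had no H3K27ac peak in hDE and fold enrichments of 9.36 and 2.71 in hPFE, and ISL1 none and then 7.15 and 5.80. SOX2 had none in hDE and 7.45 and 3.95 in hPFE. PAX9 had a peak in hPFE replicate 1 only (7.06), as did HOXB1 (3.79). A further 18 lost genes carried H3K27ac in all 4 H3K27ac libraries, among them NR2F2, MEIS1, MEIS2 and CHD7, and 6 carried none at either stage. Outside the lists, opposite pairs included MEIS3, a HOX cofactor (1510 and 1675 bp of H3K27me3 in hDE), TGFB2, a growth factor (1654 and 1672 bp), and FGFR3, an FGF receptor (767 and 1027 bp). The gained side held RUNX1T1, a corepressor (477 and 641 bp in hPFE), CADPS (874 and 1480 bp), which acts in vesicle release, and ADCY2, an adenylate cyclase (890 and 1695 bp).

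H3K4me2, a mark of promoters that are active or poised, changed less between the stages at these genes. It lay in both hDE libraries at 76.3% of gained and 85.1% of lost genes, and in the single hPFE library at 74.5% and 88.6%. The shares over all genes were 68.2% and 70.3%. Of the genes that lost H3K27me3, 76.0% had carried it in both hESC libraries, against 39.4% of the gained and 94.6% of the kept genes. For all genes this share was 19.3%. In the hAFE library 43.2% of the lost and 52.0% of the gained genes had a peak, against 96.1% of kept, 1.30% of unmarked and 15.5% of all genes.

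**Figure D5:**
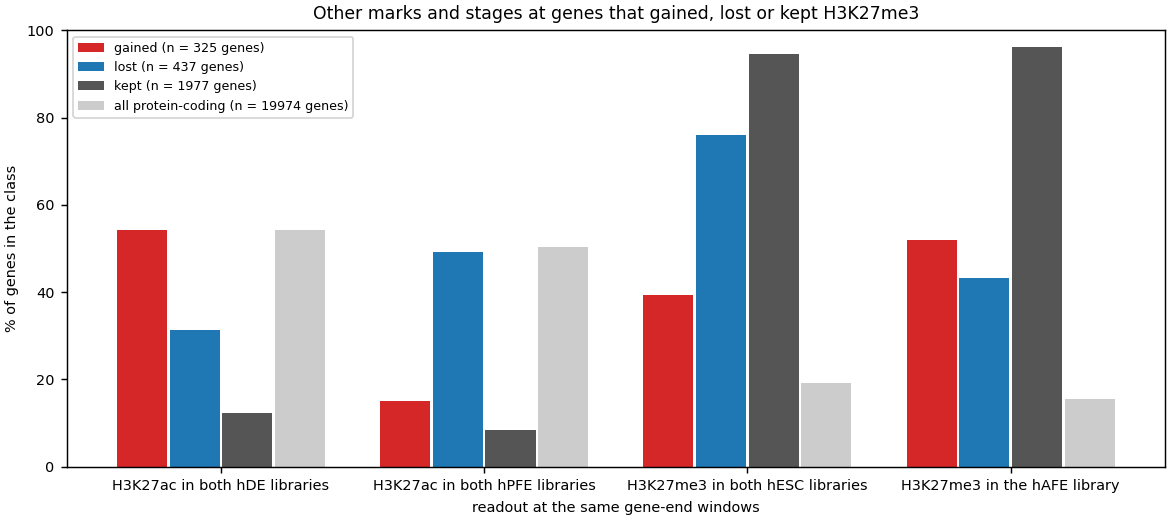
Share of genes (%, vertical) with H3K27ac in both hDE or both hPFE libraries, with H3K27me3 in both hESC libraries, and with H3K27me3 in the single hAFE library, at the same gene-end windows, for 325 gained, 437 lost, 1977 kept and all 19974 protein-coding genes. H3K27ac goes from 54.2% to 15.1% at gained genes and from 31.4% to 49.2% at lost genes.

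Within gene bodies, between the end windows of the 18725 genes over 2 kb, 967 genes gained the mark (5.16%) and 332 lost it (1.77%). The best-ranked gained bodies were SALL3, SP5, LHX1, SOX17 and GPR176. SALL3, a zinc finger factor (chr18:78979818-78998969), had 0 bp of body peak in both hDE libraries and 6616 and 5394 bp in hPFE. The best-ranked lost bodies included HOXA2, TBX3, FZD1 and HOXB2. TBX3, a T-box factor of pharynx and heart (chr12:114670255-114684175), lost all body peak, from 10135 and 10656 bp in hDE to 0 and 0 in hPFE. Its ends stayed marked, with 2303 and 2183 bp in hDE and 137 and 145 bp in hPFE, so it was called kept at the ends. FZD1, a WNT receptor, had 3297 and 2859 bp of body peak in hDE and 0 and 0 in hPFE.

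The excess of gained over lost bodies did not hold at stricter peaks. At a −log10 p of at least 5, 346 bodies gained and 431 lost the mark, and at a −log10 q of at least 2 the counts were 405 and 448. With lists cut to equal length the counts were 533 and 522. Of the 967 gained bodies, 648 belonged to genes with unmarked ends and 87 to genes also gained at the ends. Of the 332 lost bodies, 106 had unmarked ends and 101 were also lost at the ends.

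Counted as merged regions, losses outnumbered gains at each kind of place. At gene ends 551 of 10093 regions were gained (5.46%) and 749 lost (7.42%). In gene bodies 1626 of 61254 were gained (2.65%) and 2305 lost (3.76%), and at distal places 2303 of 101168 were gained (2.28%) and 2853 lost (2.82%). Gained regions covered 2.13 Mb and lost regions 3.60 Mb, with median widths of 352 and 447 bp. Of 172515 regions 150358 were found in 1 list only, with a median width of 156 bp, and 5506 in all 4 lists, with a median of 1646.5 bp. Region counts in bodies thus ran against the counts of genes above, and the cause of this difference was not tested. Leaving out a library cannot decide whether the excess of losses holds, because its stage then needs a peak in 1 list only. Without hPFE replicate 2, 38719 distal regions were gained and 3373 lost, and without hPFE replicate 1 the counts were 30250 and 3155. Without hDE replicate 1, 2634 were gained and 26837 lost. At the stricter threshold 464 distal regions were gained and 992 lost.

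The best-ranked lost distal region, 8275 bp long, lay 5.55 kb from NR2F2 (chr15:96345816-96354090), with 7493 and 8047 bp of peak in hDE and 0 and 0 in hPFE. The next, of 3004 bp, lay 6.47 kb from MEIS2 (chr15:37107779-37110782), with 2788 and 2855 bp in hDE, and H3K27ac in both hPFE libraries and neither hDE library. Both nearest genes were themselves lost at their ends. The others lay near NEUROG1, AP2S1 and RASGRP1. Gained distal regions of best rank lay near MEF2D, SIX3, SP5, CAMKMT and INSIG2. The region 3.30 kb from SP5 (chr2:170708917-170712032) had 0 and 0 bp in hDE and 2630 and 2809 bp in hPFE. Regions near CAMKMT and INSIG2 carried H3K27ac in both hDE libraries and in neither hPFE library. Median distances to the nearest gene were 22.6 kb for gained and 34.7 kb for lost distal regions, and the nearest gene had the same call for 165 and 280 of them.

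Of 1558 miRNA hairpins, read with 1 kb on each side, 5 gained, 15 lost and 41 kept the mark. Mature sequences of the best known members are printed from RefSeq (GRCh38.p14) with the seed, bases 2 to 8, in capitals. These members were chosen after their values were seen. The hairpin of miR-375, a miRNA of endoderm and pancreatic islets, gained the mark, and the others lost it.
hsa-miR-375-3p: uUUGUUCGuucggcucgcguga
hsa-miR-125b-5p: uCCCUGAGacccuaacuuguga
hsa-miR-149-5p: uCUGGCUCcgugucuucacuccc
hsa-miR-181c-5p: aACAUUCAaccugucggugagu
hsa-miR-181d-5p: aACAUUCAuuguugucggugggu
The 5p arms of miR-181c and miR-181d share a seed. MIR375 (chr2:219001645-219001708) had 0 and 0 bp in hDE, 0 bp in hAFE and 1324 and 1957 bp in hPFE, after 1989 and 1997 bp in hESC. MIR125B1, of a family linked to differentiation and timing, had 1006 and 901 bp in hDE and 0 in hAFE and both hPFE libraries. MIR149 had 943 and 861 bp in hDE and 0 and 0 in hPFE. MIR181C and MIR181D, which lie in 1 cluster on chromosome 19 and share their peaks, had 369 and 188 bp and 369 and 271 bp in hDE. These lost hairpins had no peak in the hAFE library either, which the calls did not use. MIR1469 lies in the NR2F2 locus and was lost with it, with 1638 and 1832 bp in hDE and 483 bp in hAFE.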

How the data were processed

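Chromatin immunoprecipitation libraries of H1 cells at 4 stages were deposited as 1 narrowPeak list per library, called against an input library per the file names. Per the submitters' processing notes the build was hg38. Which aligner and caller were used is not given in the sources used here. The authors deposited 4 values per peak: a whole-number score, the fold enrichment as a ratio, and −log10 of its p and q. The deposited fold is printed to describe a peak, the deposited −log10 p and −log10 q rank or filter peaks within 1 list, and no value was compared between lists. The integer score was not used.

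Chromosomes 1 to 22 and X were kept, which left out 63 to 176 peaks per list, and overlapping peaks of a list were merged. Genes are the 19974 protein-coding genes of a RefSeq table (GRCh38.p14) without strand; strand came from promoter entries for 15813 of them. Where a gene had several entries, that nearest its annotated start was used. A gene was marked with at least 1 bp of peak within 1 kb of either end. Regions are the merged union of the 4 lists, placed at a gene end, else in a gene body, else distal. Depth is unknown for all lists, so no interval is given. H3K27ac lists held 81031 to 111197 peaks.

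Members and gene lists were chosen with earlier results of these data known, and the miRNAs printed after their values were seen. Settings for the list counts and opposite H3K27ac changes were added after seeing the data. Named genes are list genes called at a gene end, with values for most; outside the lists the 10 gained and 10 lost genes with the best rank, taken as the worse of their 2 within-list percentiles of −log10 p; the 5 best gene bodies and distal regions each way; kept members with the longest peaks; genes with opposite H3K27ac changes; and marker genes. Some genes that this rule names are not reported here and stay within the counts. Python 3.11.15 with pandas 2.3.3, numpy 2.4.6, scipy 1.17.1 and matplotlib 3.10.9 were used, and calls were tested on simulated lists with planted changes. Alternatives were other peak thresholds, equal list lengths, overlaps, windows and gene sets, and each library left out.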

Additional observations from a re-analysis of the deposited data

How the results depend on the processing

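Between hDE and hPFE, 325 genes gained and 437 lost H3K27me3 at their ends. With 1 library left out these counts ran from 355 to 995 and from 493 to 1312, opposite H3K27ac pairs on the lost side from 72 to 108, and lost retinoic acid genes from 5 to 8. Gained bodies ran from 1077 to 2258 and lost bodies from 422 to 1505. Gained regions ran from 640 to 2324 at gene ends, 1807 to 21532 in bodies and 2634 to 38719 at distal places, and lost regions from 851 to 2905, 2480 to 18465 and 3155 to 26837. Fewer libraries make the rule easier to meet by construction. The hPFE minus hDE difference in marked genes (-40) ran from -590 to 510, and its sign turned without hDE replicate 2 (510) and without hPFE replicate 1 (171).

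At a −log10 p of at least 5, gained bodies were 346, lost regions at ends 496, regions in bodies 474 gained and 833 lost, and distal regions 464 gained and 992 lost. At a −log10 q of at least 2, gained bodies were 405, regions in bodies 535 and 993, and distal regions 548 and 1202. Equal list lengths gave 533 gained and 522 lost bodies, and 676 gained body and 762 gained distal regions. An overlap of 200 bp gave 886 and 1529 body regions and 938 and 1857 distal regions. The 2.5 kb window left 4 primitive streak and 4 definitive endoderm genes gained. The annotated start alone, read in 15813 genes, gave 205 gained genes, 7 lost pharyngeal genes and 2 lost HOX genes. Counting other-stage peaks within 1 kb left 321, 1042 and 1505 gained regions at ends, in bodies and at distal places. Placing regions by all annotated genes gave 902 gained and 1258 lost at ends and 1871 lost at distal places. For shifts without a stated construction the cause was not tested. Of 184 alternative values of these results, 126 kept their direction and, for counts, stayed within 1.5 times, 56 moved further and 2 turned sign. A count can stay alike while its genes change. At a −log10 p of at least 5, 240 genes gained and 335 lost the mark, of which 141 and 194 were among the 325 and 437. With equal list lengths 178 of 241 gained and 352 of 477 lost genes were among them. Of the named genes, 15 of 49 gained and 13 of 54 lost were called under every setting that kept all 4 libraries. Only settings that read the gene count here. The annotated start alone read 31 of these 49 genes and 40 of these 54, as the others have no entry with strand. With the replicate number as a block, hPFE minus hDE marked genes were 299 in replicate 1 and -379 in replicate 2, a mean of -40 (two-sided exact permutation p = 1 over the signs of 2 pairs, smallest p allowed 0.5). A gene called in both pairs meets the main rule by construction, so the paired counts were 325 and 437 too. Nothing in the labels ties same-numbered libraries to a shared culture. Depth is unknown, which limits what a missing peak shows.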
